A study of Mus musculus with 6 samples.

Results

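The 10 miRNAs described here are known from white blood cells, and were followed through 6 small RNA libraries of mouse serum. They were chosen by name and not by any measured value, although earlier results of these data were known. The 10 are miR-142a-5p, miR-142a-3p, miR-150-5p, miR-155-5p, miR-223-3p, miR-146a-5p, miR-146b-5p, miR-181a-5p, miR-181b-5p and miR-181c-5p. In all, 788 miRNAs were listed with a read in any library, and 9 of the 10 were among them, each in all 6 libraries. The tenth, miR-142a-3p, was listed in none. The study asked how 3 kits for small RNA library preparation perform on RNA from serum, with 2 libraries each for NEBNext (New England Biolabs), TruSeq (Illumina) and TailorMix (Seqmatic). All 6 libraries came from healthy 129/SVj mice, which the paper describes as a whole as male and female and 2 to 9 months old. The sex and age of the mouse behind each library are not given. The groups were set by kit and carried no treatment or genotype difference. Blood was left to clot and was spun at 1900 g, and the supernatant was spun again at 16000 g to remove cell debris. Libraries were cut to between 125 and 153 bp, which did not restrict them to inserts of the size of miRNAs. The paper reports that tRNA genes took most of the mapped reads with every kit, and miRNAs only a small part. The most common read length was that of tRNA fragments, which are longer than miRNAs.

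The libraries held between 165139 and 351758 miRNA reads, and each value below is a read count or its share of these reads. The 95% Wilson interval of a member's share reached at most 0.0667 percentage points to either side, for miR-142a-5p with TruSeq. Such intervals cover counting error only, since reads carry no molecular identifiers. The libraries were numbered 1 and 2 within each kit without saying whether a number marks the same mouse. The p-values therefore measure only the spread between these libraries, which may be technical. For the tests of fold changes this spread was estimated in common over all 3 kits, not from the 2 kits compared alone. The serum came from individual mice, and where different mice were used for different kits, kit and mouse cannot be told apart. The 2 TruSeq libraries differed most from each other. A chi-square test of the members' counts gave 26.9 for each degree of freedom there, against 3.05 for NEBNext and 2.11 for TailorMix. The common spread may thus be too small for TruSeq, and p-values of comparisons with TruSeq too low. The miRNA with the highest mean share was another one in each kit, and none of these was a member.

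A mature miRNA guides the Argonaute protein to messenger RNAs that pair with its seed, here bases 2 to 8. miR-142 is made almost exclusively in blood-forming cells and their progeny, miR-150 marks mature lymphocytes, and miR-223 marks neutrophils and other myeloid cells. miR-155 and miR-146a are switched on when immune cells are activated, where miR-155 promotes and miR-146a dampens the response. miR-181a is best known for setting the sensitivity of the T cell receptor in the thymus, although the miR-181 family is also made in other tissues such as brain. Serum holds these miRNAs outside cells, so the number of cells that released a miRNA and the amount released per cell cannot be told apart here, and neither can the cell type that released it.

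The mature sequences are shown to make visible which members can be mistaken for each other, with the seed in capitals and the rest in lower case, read 5′ to 3′. They were taken from RefSeq (GRCm38.p6), in which 9 of the 10 members were matched by name.
miR-142a-5p: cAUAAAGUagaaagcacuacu
miR-142a-3p: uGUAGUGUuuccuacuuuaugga
miR-155-5p: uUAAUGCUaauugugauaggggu
miR-223-3p: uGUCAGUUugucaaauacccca
miR-146a-5p: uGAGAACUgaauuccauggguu
miR-146b-5p: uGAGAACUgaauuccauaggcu
miR-181a-5p: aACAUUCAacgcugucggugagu
miR-181b-5p: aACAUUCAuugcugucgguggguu
miR-181c-5p: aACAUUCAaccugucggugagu

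The members with a sequence fell into 6 seeds. miR-146a-5p and miR-146b-5p share a seed and their first 17 bases, and differ by G18A and U21C, counted from 1 at the 5′ end with the base of miR-146a-5p first. miR-181a-5p, miR-181b-5p and miR-181c-5p share another seed. miR-181b-5p differs from miR-181a-5p by A9U, C10U and A21G and is 1 base longer. miR-181c-5p has the first 10 and the last 12 bases of miR-181a-5p and is 1 base shorter. Reads were mapped without mismatches, so a full-length read of one of these paralogs does not map to the other. A read of the first 17 bases of the miR-146 pair would fit both, and the counts do not give read lengths.

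Positions are given on GRCm38. The 2 arms of miR-142a lie at chr11:87756867-87756887 and chr11:87756903-87756925 on the plus strand, inside the long noncoding host gene Mir142hg. The hairpin Mir142b is annotated on the opposite strand, and its mature miR-142b covers 20 of the bases of miR-142a-3p. miR-155-5p lies at chr16:84714143-84714165 (plus strand) in an exon of its noncoding host gene Mir155hg, and miR-223-3p at chrX:96242884-96242905 (plus strand) in an exon of the noncoding transcript F630028O10Rik. miR-146a-5p lies at chr11:43374435-43374456 on the minus strand, and miR-146b-5p at chr19:46342790-46342811 on the plus strand, overlapping the gene Mfsd13a. miR-181a-5p and miR-181b-5p are each encoded at 2 places as neighbours, all on the plus strand. On chromosome 1 they lie at chr1:137966468-137966490 and chr1:137966650-137966673. On chromosome 2 they lie at chr2:38852741-38852763 and chr2:38853845-38853868, on the strand opposite the gene Nr6a1. Their reads cannot be divided between the 2 places. miR-181c-5p lies at chr8:84178924-84178945 on the minus strand, overlapping the gene Nanos3.

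The white blood cell miRNAs together held between 3.32% and 4.66% of a library's miRNA reads, and the members that led this share were different ones with each kit. Their summed share was 3.40% in both NEBNext libraries, 4.66% and 4.31% for TruSeq and 3.32% and 3.35% for TailorMix. The TruSeq libraries were the highest, and the mean share differed by less than 1.5-fold between any kits (3.40% ± 0.000480 for NEBNext, 4.48% ± 0.245 for TruSeq and 3.33% ± 0.0202 for TailorMix, SD, n = 2). No test was made on this sum, because its members were chosen.

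The make-up of that share was another one in each kit. With NEBNext, miR-146a-5p and miR-146b-5p gave 48.2% ± 2.61 of the members' reads (SD, n = 2), against 3.89% ± 0.924 with TruSeq and 10.0% ± 0.543 with TailorMix. With TruSeq, miR-142a-5p alone gave 76.1% ± 3.25, against 9.77% ± 0.174 with NEBNext and 22.7% ± 1.07 with TailorMix. With TailorMix, the 3 miR-181 paralogs gave 47.4% ± 0.778, against 16.3% ± 0.197 with NEBNext and 0.494% ± 0.000695 with TruSeq. The lymphocyte miRNA miR-150-5p gave 22.8% ± 2.06 for NEBNext, 16.1% ± 4.10 for TruSeq and 2.51% ± 0.351 for TailorMix.

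**Figure D1:**
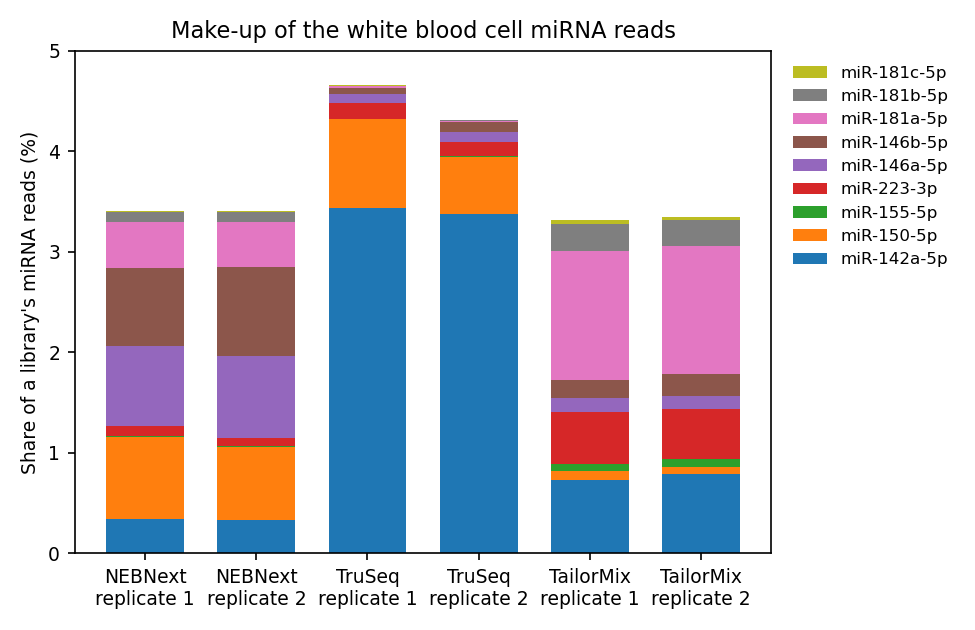
Share of a library's miRNA reads (vertical axis, percent) held by the white blood cell miRNAs, with 1 stacked bar for each of the 6 serum libraries and 1 colour for each member. The bars reach between 3.32% and 4.66%, but miR-142a-5p fills most of the TruSeq bars, the miR-146 pair the largest part of the NEBNext bars and the miR-181 paralogs the largest part of the TailorMix bars.

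The blood cell miRNA miR-142a-5p (MIMAT0000154) had the highest share of all members with TruSeq, the second highest with TailorMix and the fifth highest with NEBNext. It had 757 and 542 NEBNext reads (0.337% and 0.328%), 12088 and 9531 TruSeq reads (3.44% and 3.38%), and 1407 and 1544 TailorMix reads (0.727% and 0.784%), the values of replicates 1 and 2 being given in that order throughout. The replicates lay close together and the kits did not overlap. The mean share was 10.3-fold higher with TruSeq than with NEBNext. Among all miRNAs of a library it ranked 7 and 6 with TruSeq, 25 in both TailorMix libraries, and 54 and 56 with NEBNext. The opposite arm of the same hairpin, miR-142a-3p (MIMAT0000155), had 0 listed reads in every library. As a matter of counting alone, 0 listed reads allow a share of up to 0.000853% in the deepest library and 0.00182% in the shallowest (3 counts), but this sets no limit on reads that the annotation may have placed elsewhere or left out. The mature miR-142b is annotated over most of miR-142a-3p on the other strand, and its part in this absence was not tested. The ratio of the arms could not be computed.

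miR-150-5p (MIMAT0000160), which restrains the transcription factor Myb in lymphocytes, was scarce with TailorMix. It had 1853 and 1197 NEBNext reads (0.824% and 0.725%), 3109 and 1602 TruSeq reads (0.884% and 0.568%), and 177 and 149 TailorMix reads (0.0915% and 0.0757%). The TailorMix libraries lay below the other 4, while the NEBNext and TruSeq libraries overlapped. It was the member with the widest spread between the TruSeq libraries apart from miR-181b-5p, with a 1.56-fold difference.

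The activation miRNA miR-155-5p (MIMAT0000165) was scarce in all libraries and least so with TailorMix. It had 20 and 15 NEBNext reads (0.00889% and 0.00908%), 19 and 11 TruSeq reads (0.00540% and 0.00390%), and 140 and 158 TailorMix reads (0.0724% and 0.0802%). The mean share was 16.4-fold higher with TailorMix than with TruSeq, and the counts of the other 4 libraries were too low to give a precise share.

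The myeloid miRNA miR-223-3p (MIMAT0000665) was also highest with TailorMix. It took 0.0947% and 0.0860% of the NEBNext reads, 0.157% and 0.143% of the TruSeq reads (554 and 402 reads), and 0.517% and 0.491% of the TailorMix reads (1000 and 967 reads). The kits did not overlap, and the highest mean share was 5.58-fold the lowest, the narrowest range of any member.

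miR-146a-5p and miR-146b-5p, which both dampen signalling from Toll-like receptors, were highest with NEBNext. miR-146a-5p (MIMAT0000158) had 1798 and 1346 NEBNext reads (0.800% and 0.815%), 298 and 287 TruSeq reads (0.0847% and 0.102%), and 273 and 260 TailorMix reads (0.141% and 0.132%). miR-146b-5p (MIMAT0003475) had 1751 and 1467 NEBNext reads (0.779% and 0.888%), 233 and 266 TruSeq reads (0.0662% and 0.0943%), and 346 and 426 TailorMix reads (0.179% and 0.216%). Both were lowest with TruSeq, and the kits did not overlap for either. The highest mean share was 8.66-fold the lowest for miR-146a-5p and 10.4-fold for miR-146b-5p.

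Among the miR-181 paralogs, regulators of lymphocyte development, miR-181a-5p and miR-181b-5p had the widest ranges of mean share of all members with reads, and miR-181c-5p one of the narrowest. miR-181a-5p (MIMAT0000210) had 1010 and 728 NEBNext reads (0.449% and 0.441%), 52 and 46 TruSeq reads (0.0148% and 0.0163%), and 2474 and 2517 TailorMix reads (1.28% in both). It thereby ranked 17 in both TailorMix libraries, 45 in both NEBNext libraries, and 101 and 99 in the TruSeq libraries. miR-181b-5p (MIMAT0000673) had 230 and 165 NEBNext reads (0.102% and 0.0999%), 10 and 2 TruSeq reads (0.00284% and 0.000709%), and 528 and 506 TailorMix reads (0.273% and 0.257%). Its TruSeq libraries differed 4.01-fold from each other on these few reads, and 2 reads are below the floor of 3 counts used here. miR-181c-5p (MIMAT0000674) was scarce throughout, with 18 and 15 NEBNext reads (0.00800% and 0.00908%), 19 and 12 TruSeq reads (0.00540% and 0.00425%), and 72 and 60 TailorMix reads (0.0372% and 0.0305%). All 3 paralogs were highest with TailorMix without overlap, and miR-181a-5p and miR-181b-5p were lowest with TruSeq without overlap. For miR-181c-5p the TruSeq shares were also the lowest, but on few reads. Its 95% Wilson intervals in replicate 1 overlapped, with 0.00506% to 0.0127% for NEBNext and 0.00346% to 0.00844% for TruSeq. With the reads of the 2 libraries of a kit pooled, the share of miR-181a-5p was 82.7-fold higher with TailorMix than with TruSeq (exact 95% interval of counting error 67.7 to 102), and that of miR-181b-5p was 139.9-fold higher (79.7 to 272). For miR-181c-5p the mean share, not that of pooled reads, was 7.01-fold higher with TailorMix than with TruSeq, on 19 and 12 TruSeq reads.

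**Figure D2:**
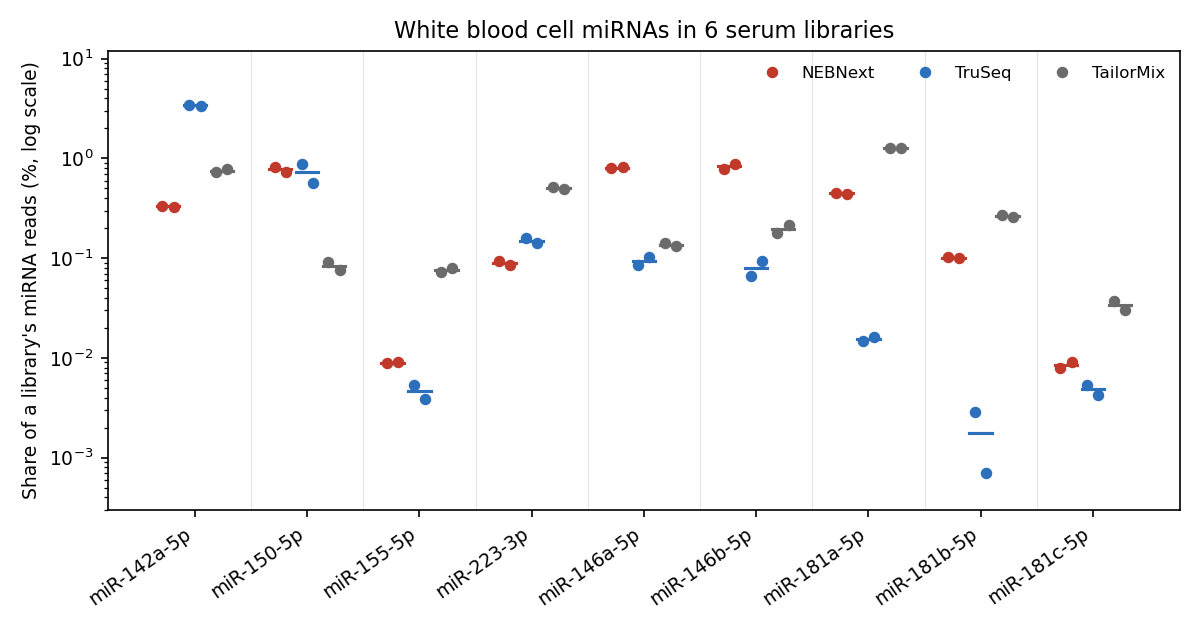
Share of a library's miRNA reads (vertical axis, percent, log scale) for the 9 members with reads, with 1 point for each library, coloured by kit, and a bar at the mean of the 2 libraries of a kit. The highest mean share is that of TruSeq for miR-142a-5p, of NEBNext for the miR-146 pair and of TailorMix for miR-155-5p, miR-223-3p and the miR-181 paralogs, while for miR-150-5p the NEBNext and TruSeq points overlap above those of TailorMix. The TruSeq replicates lie apart for miR-181b-5p and miR-150-5p.

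The order of the members therefore depended on the kit. Mature lengths run from 21 to 24 bases, and shares of reads were compared between members without scaling for length. With NEBNext the order from the highest was miR-146b-5p, miR-146a-5p, miR-150-5p, miR-181a-5p, miR-142a-5p, miR-181b-5p, miR-223-3p, miR-155-5p and miR-181c-5p, with overlapping shares for each neighbouring pair among the first 3 and for the last 2. With TruSeq it was miR-142a-5p, miR-150-5p, miR-223-3p, miR-146a-5p, miR-146b-5p, miR-181a-5p, miR-181c-5p, miR-155-5p and miR-181b-5p, with overlap between the miR-146 pair and between miR-181c-5p and miR-155-5p. With TailorMix it was miR-181a-5p, miR-142a-5p, miR-223-3p, miR-181b-5p, miR-146b-5p, miR-146a-5p, miR-150-5p, miR-155-5p and miR-181c-5p, with overlap between miR-150-5p and miR-155-5p.

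Differences between kits were then tested across all miRNAs with edgeR's quasi-likelihood test, with TMM scaling and with Benjamini-Hochberg adjustment over the 360 miRNAs that reached 4 counts in 2 or more libraries. Of the 10 members 9 passed this filter. A difference was called at an adjusted p under 0.05. The SE of a fold change was calculated back from the fold change and the F statistic of its test, and the intervals of fold changes rest on this SE. It was not estimated separately, and leaving out a library could move a value by more than this SE, as for miR-181b-5p below. TMM scaling adjusts each library by a trimmed mean of log ratios, so its fold changes differ from ratios of shares. It assumes that most miRNAs do not differ between the libraries. That assumption is in doubt here, since 68.6%, 77.5% and 70.6% of the miRNAs were called in the comparisons below. The TMM factors were 1.47 and 1.51 for NEBNext, 0.685 and 0.735 for TruSeq, and 0.947 and 0.946 for TailorMix. Which scaling places the point of no change correctly was not tested. Scaling by the total of miRNA reads, which keeps the scale of the shares, moved the median log2 fold change of all 360 miRNAs by -0.95 for TruSeq against NEBNext, by -0.65 for TailorMix against NEBNext and by 0.41 for TailorMix against TruSeq. The 3 comparisons share libraries, so their values are not independent of each other.

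Between TruSeq and NEBNext, 7 of the 9 members tested were called, against 68.6% of all miRNAs tested. miR-142a-5p (log2 fold change 4.43 ± 0.11, SE, adjusted p = 4.97e-27) and miR-223-3p (1.798 ± 0.14, adjusted p = 2.18e-13) were higher with TruSeq. miR-150-5p was also higher (0.99 ± 0.15, adjusted p = 4.16e-07), but by total scaling it lay at -0.09 (adjusted p = 0.409). The miR-146 pair was lower with TruSeq (-2.05 ± 0.13, adjusted p = 3.47e-16, for miR-146a-5p and -2.32 ± 0.14, adjusted p = 2.09e-16, for miR-146b-5p). So were miR-181a-5p (-3.77 ± 0.15, adjusted p = 1.37e-21) and miR-181b-5p (-4.64 ± 0.30, adjusted p = 1.28e-15), the latter on 12 TruSeq reads in all. For miR-181b-5p 1 library moved the value, to -6.10 without TruSeq replicate 1 and to -4.15 without TruSeq replicate 2. miR-155-5p (0.14, 95% interval -0.63 to 0.92, adjusted p = 0.766) and miR-181c-5p (0.27, -0.53 to 1.08, adjusted p = 0.558) did not pass the test, and the sign of both turned with total scaling, which called miR-155-5p lower (-0.92, adjusted p = 0.0269) but not miR-181c-5p (-0.79, adjusted p = 0.0748). Thus 3 members were higher and 4 lower with TruSeq, where 26.1% of all miRNAs were higher and 42.5% lower. By total scaling 2 were higher and 5 lower, and the share of higher miRNAs among all called went from 38.1% to 24.2%.

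Between TailorMix and NEBNext, all 9 members tested were called, against 77.5% of all miRNAs tested. Higher with TailorMix were miR-155-5p (3.73 ± 0.24, adjusted p = 1.92e-15), miR-223-3p (3.12 ± 0.14, adjusted p = 6.36e-20), miR-142a-5p (1.84 ± 0.10, adjusted p = 2.92e-17) and the miR-181 paralogs. The log2 fold changes of the paralogs were 2.17 ± 0.11 for miR-181a-5p (adjusted p = 2.75e-18), 2.04 ± 0.16 for miR-181b-5p (adjusted p = 1.04e-13) and 2.64 ± 0.29 for miR-181c-5p (adjusted p = 1.08e-09). Lower with TailorMix were miR-150-5p (-2.56 ± 0.17, adjusted p = 2.95e-15) and the miR-146 pair (-1.91 ± 0.13, adjusted p = 2.95e-15, for miR-146a-5p and -1.42 ± 0.13, adjusted p = 2.28e-11, for miR-146b-5p). So 6 members were higher and 3 lower, where 39.2% of all miRNAs were higher and 38.3% lower. Total scaling left the members' directions as they were, while the share of higher miRNAs among all called went from 50.5% to 38.6%.

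Between TailorMix and TruSeq, 8 of the 9 members tested were called, against 70.6% of all miRNAs tested. The miR-181 paralogs were higher with TailorMix, and their changes were unequal, with 5.95 ± 0.15 for miR-181a-5p (adjusted p = 2.12e-27), 6.68 ± 0.26 for miR-181b-5p (adjusted p = 1.01e-21) and 2.36 ± 0.30 for miR-181c-5p (adjusted p = 2.07e-08). The value of miR-181b-5p was 7.96 without TruSeq replicate 1 and 5.97 without TruSeq replicate 2. miR-155-5p (3.58 ± 0.25, adjusted p = 1.70e-14), miR-223-3p (1.33 ± 0.13, adjusted p = 3.50e-11) and miR-146b-5p (0.90 ± 0.15, adjusted p = 1.94e-06) were also higher. miR-142a-5p (-2.59 ± 0.10, adjusted p = 9.27e-22) and miR-150-5p (-3.55 ± 0.17, adjusted p = 5.83e-19) were lower. miR-146a-5p did not pass the test (0.14, 95% interval -0.13 to 0.42, adjusted p = 0.363), but was called higher with total scaling (0.56, adjusted p = 2.52e-05). So 6 members were higher and 2 lower, where 41.7% of all miRNAs were higher and 28.9% lower. By total scaling 7 were higher and 2 lower, and the share of higher miRNAs among all called went from 59.1% to 66.3%.

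The members were called somewhat more often than miRNAs in general (77.8%, 100% and 88.9% of 9, against 68.6%, 77.5% and 70.6% of 360). Low-count miRNAs are called less easily, and the difference in rate was not tested. With at least 10 counts in every library, 6, 8 and 8 of 8 members were called, against 91, 101 and 98 of 110 miRNAs. The sizes of the changes were about alike. The median absolute log2 fold change of the 9 members was 2.05 for TruSeq against NEBNext, where it was 2.21 over all 360 miRNAs. It was 2.17 against 2.18 for TailorMix and NEBNext, and 2.59 against 2.37 for TailorMix and TruSeq. The signed medians of the members were 0.14, 2.04 and 1.33, where those of all miRNAs were -0.52, -0.24 and 0.50. The calls of the members numbered 7, 9 and 8 also when any of the 6 libraries was left out.

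**Figure D3:**
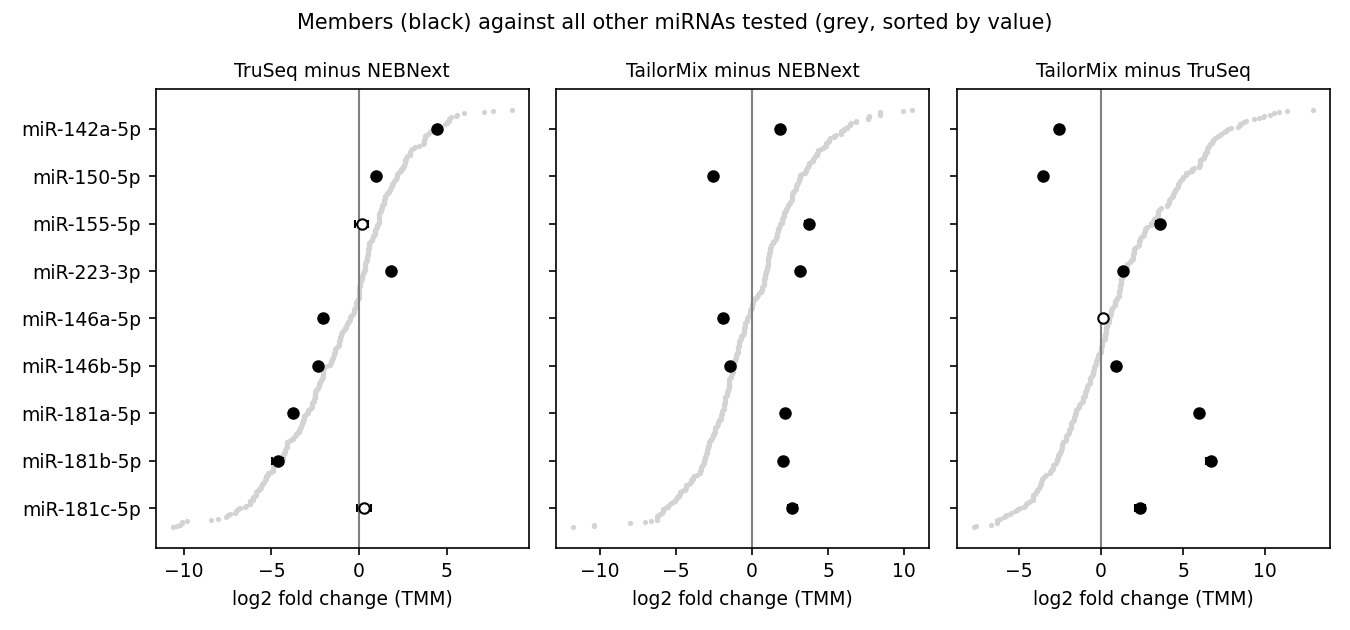
Log2 fold change between kits after TMM scaling (horizontal axis) for the 9 members tested (black, with SE bars, open where the adjusted p was not under 0.05) in 3 panels, over the other miRNAs tested (grey points, stacked in order of their value, whose height carries no other meaning). The members spread over much of the grey range in each panel, from -4.64 to 4.43 in TruSeq against NEBNext and from -3.55 to 6.68 in TailorMix against TruSeq.

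Ratios between members that share a seed were computed within each library, where the scaling between libraries does not enter. miR-146a-5p had fewer reads than miR-146b-5p in both TailorMix libraries, where the exact 95% intervals of counting error did not reach 1 (0.671 to 0.927 and 0.521 to 0.714). The interval also lay below 1 in NEBNext replicate 2 (0.851 to 0.989) and above 1 in TruSeq replicate 1 (1.07 to 1.52). It held 1 in NEBNext replicate 1 and TruSeq replicate 2. The ratio of miR-146a-5p to miR-146b-5p was 1.03 and 0.918 for NEBNext, 1.28 and 1.08 for TruSeq, and 0.789 and 0.610 for TailorMix. The pair kept a log2 ratio between -0.71 and 0.35, although the share of each member differed between kits by 8.66-fold or more. miR-181a-5p had 4.39 and 4.41 reads for each read of miR-181b-5p with NEBNext, and 4.69 and 4.97 with TailorMix. With TruSeq the ratio was 5.20 (exact 95% interval of counting error 2.61 to 11.5) and 23.0 (6.02 to 196) for 10 and 2 reads of miR-181b-5p. The interval of the first TruSeq library holds the values of the other kits, and that of the second lies above them. The ratio of miR-181a-5p to miR-181c-5p was 56.1 and 48.5 with NEBNext and 34.4 and 42.0 with TailorMix, but 2.74 and 3.83 with TruSeq. On the log2 scale this was 5.71 ± 0.15, 5.25 ± 0.20 and 1.70 ± 0.34 (SD, n = 2).

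With TruSeq, miR-181a-5p was thus low relative to miR-181c-5p, with which it shares the seed and the last 12 bases. For each of the 3 ratios the F ratio between kits was set against its values under all 15 groupings of 6 libraries into pairs. This exact permutation test, two-sided by construction, gave p = 0.0667, which is the smallest p this test allows with 6 libraries, and the Benjamini-Hochberg adjusted p over the 3 ratios was also 0.0667 by this exact test. This permutation test therefore could not reach 0.05 for any ratio.

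**Figure D4:**
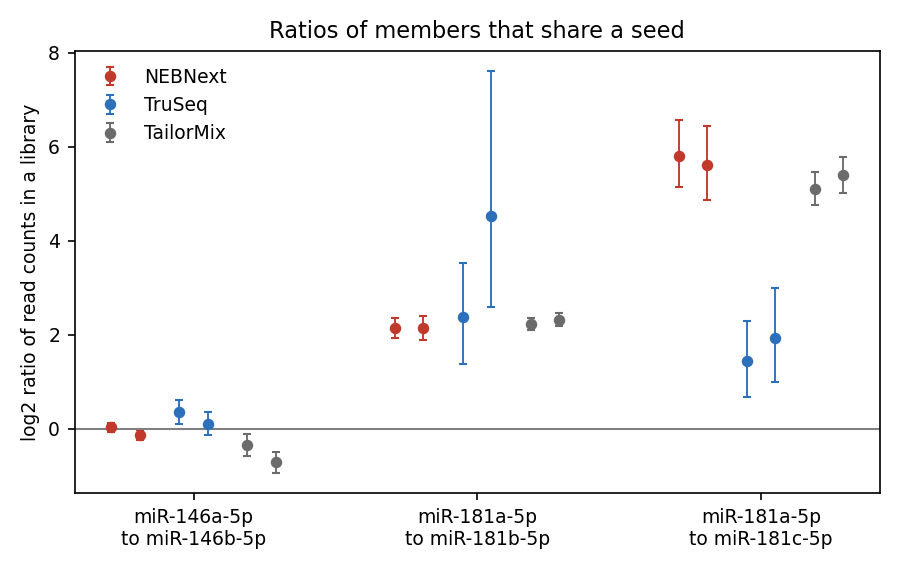
Log2 ratio of the read counts of 2 members with the same seed (vertical axis) in each of the 6 libraries, coloured by kit, with bars for the exact 95% interval of counting error. The miR-146 pair stays between -0.71 and 0.35, and the ratio of miR-181a-5p to miR-181c-5p lies at a mean of 1.70 with TruSeq against 5.71 with NEBNext and 5.25 with TailorMix.

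The members with the highest mean share over all 6 libraries, miR-142a-5p and miR-181a-5p, an order that differed by kit, were set beside the other 359 miRNAs tested by the root-mean-square difference of their centred log2 profiles over the 6 libraries. The nearest to miR-142a-5p was MIMAT0000130 at 0.25, where the median over all was 2.46. Its counts were 27 and 16 for NEBNext, 378 and 366 for TruSeq, and 60 and 79 for TailorMix, so it was likewise highest with TruSeq. The 3 nearest to miR-181a-5p were all listed at 0 in both TruSeq libraries, so their distance rests on the prior count of 1 used on the log scale, and no value is given. This is a description over 6 libraries, and the likeness follows the differences between kits.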

How the data were processed

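Small RNA of mouse serum was sequenced in 6 libraries, 2 for each of 3 kits, grouped by the sample titles. The authors deposited raw read counts per mature miRNA, which were not normalized. To make them, the authors trimmed adaptors (Cutadapt 1.8.1), dropped reads shorter than 15 bp, filtered on quality (FASTX-Toolkit 0.0.14), mapped with Bowtie 1.1.2 allowing no mismatch and annotated positions with miRBase 20 on GRCm38. A miRNA not listed in a library was taken as 0. Libraries held 165139 to 351758 miRNA reads, and 3 counts, the floor used for a count of 0, are 0.000853% to 0.00182% of a library. Lists of other small RNA classes were not used here.

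Shares, Wilson intervals, ratios and exact permutation tests were computed in Python 3.11.15 (scipy 1.17.1, numpy 2.4.6, pandas 2.3.3). Kits were compared with edgeR 4.0.16 (R 4.3.3; glmQLFit and glmQLFTest, TMM, all 6 libraries, kit as the only term, Benjamini-Hochberg over all miRNAs tested), which was tested on simulated data. DESeq2 1.42.0, other scalings and filters, a replicate block and left-out libraries were run as alternatives. The members and lists were chosen with earlier results of these data known. All members are named. Profiles were compared for the 2 members with the highest mean share over the 6 libraries, and only the miRNA nearest to miR-142a-5p is named. Opposite arms, miR-181d and miRNAs marking red cells, platelets, liver and brain were also to be named but were not analysed here, because the counts carry identifiers only and no table matching them to names was used. Sequences are from RefSeq (GRCm38.p6) and gene annotation from GENCODE M21.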

Additional observations from a re-analysis of the deposited data

How the results depend on the processing

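Each called difference of a member kept its direction under the other scalings, filters and tests and with any library left out, and none was lost (24 differences, 309 alternatives), with 1 exception: miR-150-5p between TruSeq and NEBNext, at -0.092 with scaling by total (adjusted p = 0.409). Differences that were not called turned more easily. For TruSeq against NEBNext, miR-155-5p went to -0.92 with scaling by total, -0.24 with at least 10 counts in every library, -0.16 without NEBNext replicate 1 and -0.21 without TruSeq replicate 1. miR-181c-5p went to -0.79, -0.11, -0.11 and -0.0064 under the same alternatives. With any library left out they reached at most 0.34 and 0.47. For TailorMix against TruSeq, miR-146a-5p went to -0.038 with no filter and -0.082 without TruSeq replicate 1, and was called higher with scaling by total and with at least 10 counts in every library (0.30, adjusted p = 0.0495). With a library left out it reached at most 0.26. The strict filter left 110 miRNAs to test and gave 91, 101 and 98 calls for TruSeq against NEBNext, TailorMix against NEBNext and TailorMix against TruSeq, where 247, 279 and 254 were called. miR-181b-5p did not pass it, so 6, 8 and 8 of 8 members were called. Its split of calls was 43 higher and 48 lower, 45 and 56, and 49 and 49.

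Leaving out the leading miRNA of each kit raised the summed share of the members to 3.95% for NEBNext, 5.79% for TruSeq and 4.06% for TailorMix. The log2 ratio of miR-146a-5p to miR-146b-5p with NEBNext, -0.04, was 0.038 without replicate 2, and lay between -0.12 and 0.038 with either library left out. A pseudocount of 1 moved the log2 ratio of miR-181a-5p to miR-181b-5p with NEBNext from 2.14 to 2.13. The ratio of the miR-142a arms was not computed under any alternative, since miR-142a-3p was at 0 in every library. Deviations of same-numbered libraries were little correlated between kits (-0.0043, -0.04 and 0.14 over 102 miRNAs). Technical spread could hide a pairing, so this cannot tell whether they came from the same mouse. With the replicate number as a replicate block, 232, 250 and 235 miRNAs and 7, 9 and 8 members were called. With 1 library left out, the lone library of its kit was taken to vary like the others, and 200 to 262, 207 to 284 and 206 to 252 miRNAs were called in the 3 comparisons. Low counts limited miR-155-5p and miR-181c-5p, with 11 to 20 reads in each NEBNext and TruSeq library, and miR-181b-5p with TruSeq. The TruSeq libraries nevertheless held the most miRNA reads (351758 and 282076).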
